A study of Mus musculus with 17 samples.

Results

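Lung cell cultures from Ephb4 conditional knockout (CKO) mice that received bleomycin were compared with cultures from Ephb4 CKO mice that received PBS. The comparison used 4 bleomycin and 5 PBS libraries, 9 of the 17 libraries of total RNA sequencing in the series, and the libraries were chosen by their labels alone. All mice, controls included, were Ephb4 f/f with the inducible Cre transgene Col1a2-CreERT2, which is active in cells that express the collagen gene Col1a2. The CKO mice received 4-hydroxytamoxifen at 1 mg per day for 5 days from 4 weeks of age, whereas the 8 control mice received corn oil. At 6 weeks of age, 1.2 U/kg bleomycin or PBS was given intratracheally, and lungs were taken at day 14. The cells, labelled primary fibroblasts, were grown out of the lungs, passaged 1 time and given no treatment in culture. Each library came from 1 mouse. Of 55421 genes in the count table, 10481 exceeded 10 CPM, counts scaled to a common library total, in at least 2 of the 17 libraries and were tested.

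EphB4 is a receptor tyrosine kinase whose ligand, ephrin-B2, sits in the membrane of a neighbouring cell, so that signals pass in both directions between touching cells. Bleomycin breaks DNA and injures the alveolar epithelium. The injury is followed by an influx of macrophages and by the activation of fibroblasts, which acquire contractile proteins and deposit collagen and elastic matrix. Alveolar and monocyte-derived macrophages supply chemokines, interleukins and matrix metalloproteinases in that setting, and type I interferon induces a shared set of antiviral genes in nearly every cell type.

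Total counts were 87693246 to 105277052 in the CKO bleomycin libraries and 66540022 to 110245390 in the CKO PBS libraries. The 10 most abundant genes took 18.4% to 41.3% of the counts of a library over the series. Sex-linked genes went against the labelled sex in CKO bleomycin mice 1 and 2 and in 1 control library. Values without these CKO libraries are given for Cemip, Svep1, Actg2, Gas6, Epb41l3 and Gprc5b, and beside the collagen and contractile genes. The labelled cell type was checked against markers. The summed CPM of 14 fibroblast markers, among them Col1a1, Col1a2 and Pdgfra, ranged from 112 to 1840 in the CKO bleomycin libraries and from 90.5 to 2570 in the CKO PBS libraries, against 4910 to 11400 in the control bleomycin libraries and 83.7 to 7340 in the control PBS libraries, of which 3 of 4 were at 192 or less. The highest CKO PBS sum was that of mouse 1, of which 1740 CPM were Pdpn and 770 CPM Dcn. The summed CPM of 16 pan-macrophage markers ranged from 20100 to 44000 and from 21400 to 36000 in the 2 CKO groups. All 9 libraries thus held macrophage transcripts, and the collagen I transcript Col1a2 was at 1.89 to 3.30 CPM in CKO bleomycin mouse 4 and CKO PBS mice 1, 2 and 4. The libraries are called cultures here for that reason. In such bulk RNA, fewer cells of a type and less RNA per cell cannot be told apart.

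The targeted gene did not differ between the CKO groups beyond their spread. Ephb4 (chr5:137350109-137378669, plus strand, GRCm38) was at 14.0, 9.53, 10.1 and 4.93 CPM in CKO bleomycin mice 1 to 4. In CKO PBS mice 1 to 5 it was at 7.70, 23.6, 8.97, 4.01 and 4.05 CPM. The group means were 9.64 ± 3.70 CPM (SD, n = 4) and 9.66 ± 8.09 CPM (SD, n = 5), with a log2 fold change of 0.00 (SE 0.73) and a 2-sided exact permutation p of 0.698, where the smallest p that 126 splits allow is 0.0159. The counts cover the whole gene, so the floxed exons were not measured on their own.

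In the whole comparison, edgeR's quasi-likelihood test called no gene at an adjusted p under 0.05 (0% of 10481 genes), with adjusted values of 1.00 throughout. At an unadjusted p under 0.05, 26 genes were higher (0.248% of genes tested) and 75 were lower (0.716%) with bleomycin, 101 in all, where 524 would be expected if no gene differed and the p-values were uniform. DESeq2, run as an alternative, called 1 gene, the collagenase Mmp13, at an adjusted p of 0.05. It put 185 genes under an unadjusted p of 0.05. Over all genes tested, 4633 had a higher and 5848 a lower fitted value with bleomycin, and the median log2 fold change was −0.03. The median of the absolute log2 fold change was 0.137 and the median standard error 0.28, so that a typical gene's difference was smaller than its error. A fitted difference of more than 2-fold was seen for 535 genes, of which 74 had an unadjusted p under 0.05. Among the 101 genes, 95 were protein coding. Because no gene passed the adjusted test, the values below describe these libraries, and every gene named has an adjusted p of 1.00 by edgeR.

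**Figure D1:**
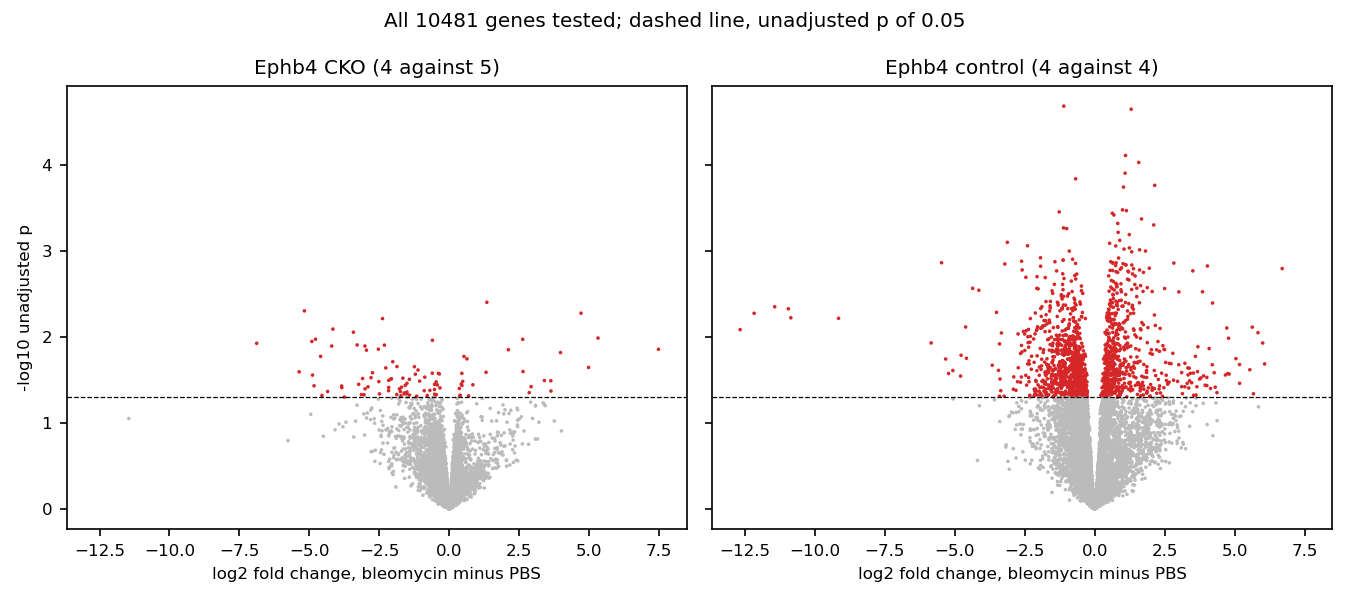
Each point is 1 of the 10481 genes tested, with the fitted log2 fold change of CKO bleomycin over CKO PBS (left) or of control bleomycin over control PBS (right) on the horizontal axis, the unadjusted −log10 p of edgeR's quasi-likelihood test on the vertical axis, and points past the unadjusted level of 0.05 in red. In the CKO cultures the 75 genes lower with bleomycin at that level outnumber the 26 higher, and none passed the adjusted test.

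The bleomycin libraries were no closer to each other than to the PBS libraries. The distance of 2 libraries was taken as the root mean square of their 500 largest log2 CPM differences, and its mean was 4.38 among the 6 pairs of CKO bleomycin libraries, with a range of 3.68 to 5.70. It was 4.58 among the 10 pairs of CKO PBS libraries, with a range of 3.58 to 5.44. Between the groups it was 4.18 over 20 pairs, with a range of 2.31 to 5.72.

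Only 9 genes had CPM values that did not overlap between the groups, 8 higher (0.0763% of genes tested) and 1 lower (0.00954%). If no gene differed, fully separated groups would have a probability of 0.0159 per gene, so more than these 9 would be expected. The lower gene was Pptc7, which encodes a phosphatase of the mitochondria. It was at 30.2, 27.5, 29.2 and 27.9 CPM in CKO bleomycin mice 1 to 4 and at 40.0, 35.6, 33.9, 40.9 and 33.8 CPM in CKO PBS mice 1 to 5. All bleomycin libraries were within a narrow band under the lowest PBS library. The log2 fold change was −0.36 (SE 0.15, unadjusted p by edgeR 0.0269), and it ran from −0.39 to −0.32 when any 1 library was left out. Its sign could hardly turn in this way, because the gene was chosen for groups that do not overlap. Control values are not given for the genes without overlap, apart from Gm24119, described next, which went the other way in the control cultures.

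The higher gene with the smallest unadjusted p among those without overlap was the small nucleolar RNA gene Gm24119. It was at 12.3, 13.9, 10.5 and 11.5 CPM with bleomycin and at 9.09, 8.11, 8.92, 10.5 and 7.54 CPM with PBS. The lowest bleomycin value and the highest PBS value met at 10.5 CPM to 3 digits, and the log2 fold change was 0.45 (SE 0.20). In the control cultures Gm24119 was at 10.3, 8.55, 9.03 and 7.51 CPM with bleomycin and at 9.96, 15.5, 8.29 and 15 CPM with PBS. Pink1, a kinase that marks damaged mitochondria for removal, was at 38.1, 40.3, 32.7 and 29.1 CPM with bleomycin and at 26.0, 28.4, 29.1, 21.7 and 24.6 CPM with PBS (log2 fold change 0.43, SE 0.21). Its bleomycin and PBS values also nearly touched, at 29.1 CPM. Ppp1cc, a catalytic subunit of protein phosphatase 1, was at 154, 160, 149 and 156 CPM with bleomycin and at 111, 135, 149, 145 and 102 CPM with PBS (log2 fold change 0.27, SE 0.13). The other genes without overlap had log2 fold changes of 0.33 for C87436, 0.22 for Mtfr1l, a regulator of mitochondrial shape, 0.27 for Magoh, a core protein of the exon junction complex, 0.38 for Tmem141, and 0.17 for the Mediator subunit Med27. These genes were chosen because their groups did not overlap, and their differences were all under 0.5 in size on the log2 scale.

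Among genes with at least 10 CPM in 2 or more of the 9 libraries and an unadjusted p under 0.05, the largest higher values came mainly from CKO bleomycin mouse 2. Cemip, a protein that degrades hyaluronan, was at 37.6, 340, 1.71 and 0.963 CPM in CKO bleomycin mice 1 to 4 and at 6.37, 0.543, 6.14, 3.51 and 1.63 CPM in CKO PBS mice 1 to 5. Bleomycin mice 1 and 2 were above every PBS library and mice 3 and 4 were within the PBS range. The log2 fold change was 4.71 (SE 1.44, unadjusted p by edgeR 0.00529). It was 1.88 without CKO bleomycin mouse 2 and −1.45 without mice 1 and 2, whose sex-linked genes went against their labels. In the control cultures the log2 fold change of Cemip was 6.70. Fibroblast markers there summed to 4910 to 11400 CPM with bleomycin and 83.7 to 7340 CPM with PBS, and their part in this value was not tested. Control values of the other largest higher genes are not given.

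Svep1, an adhesion protein of the extracellular matrix, was at 4.16, 125, 0.811 and 1.09 CPM with bleomycin and at 0.902, 0.780, 10.1, 1.00 and 0.483 CPM with PBS. Its log2 fold change of 3.63 (SE 1.54) became −0.39 without CKO bleomycin mouse 2 and −1.48 without mice 1 and 2. Actg2, the smooth muscle form of gamma actin, was at 32.4, 75.7, 3.10 and 0.928 CPM with bleomycin and at 0.390, 0.560, 9.60, 2.17 and 6.62 CPM with PBS. Mice 1 and 2 again stood above the PBS range, with a log2 fold change of 2.85 (SE 1.30), or 1.65 without mouse 2 and −0.94 without both. Gas6, the ligand of the receptors Axl and Mertk, was at 34.8, 104, 6.19 and 5.28 CPM with bleomycin and at 9.60, 7.90, 6.35, 2.95 and 16.7 CPM with PBS (log2 fold change 2.11, SE 0.76, unadjusted p by edgeR 0.0141). It was 0.82 without mouse 2 and −0.60 without mice 1 and 2. Epb41l3, which links the membrane to the cytoskeleton, had a log2 fold change of 2.62, or −0.30 without mice 1 and 2, and the orphan receptor Gprc5b 1.31, or 0.04 without them.

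Smaller differences were spread over more mice. Tef, a transcription factor with a daily rhythm, was at 33.9, 38.2, 21.6 and 27.0 CPM with bleomycin and at 13.3, 21.3, 23.7, 15.5 and 23.7 CPM with PBS. Only bleomycin mouse 3 was within the PBS range, and the log2 fold change was 0.63 (SE 0.24). Ndrg3 was at 33.4, 56.1, 29.9 and 39.4 CPM with bleomycin and at 28.3, 24.6, 32.2, 28.2 and 24.6 CPM with PBS, again with bleomycin mouse 3 alone inside the PBS range (log2 fold change 0.52, SE 0.19). Both kept a higher value whichever library was left out, at 0.50 to 0.76 for Tef and 0.31 to 0.64 for Ndrg3. The mitochondrial ribosome protein gene Mrps6 had a log2 fold change of 0.69, and Nckipsd 0.48. Of all 26 genes higher at an unadjusted p under 0.05, CKO bleomycin mouse 2 was the highest of the 9 libraries for 21, or 80.8%. Bleomycin mice 1, 3 and 4 were the highest for 2, 1 and 2 of them. A PBS library was never the highest, which follows largely from how the genes were chosen, so shares over all genes are no like background. Over all genes tested, bleomycin mice 1 to 4 were the highest for 2.76%, 9.69%, 6.53% and 13.2%.

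**Figure D2:**
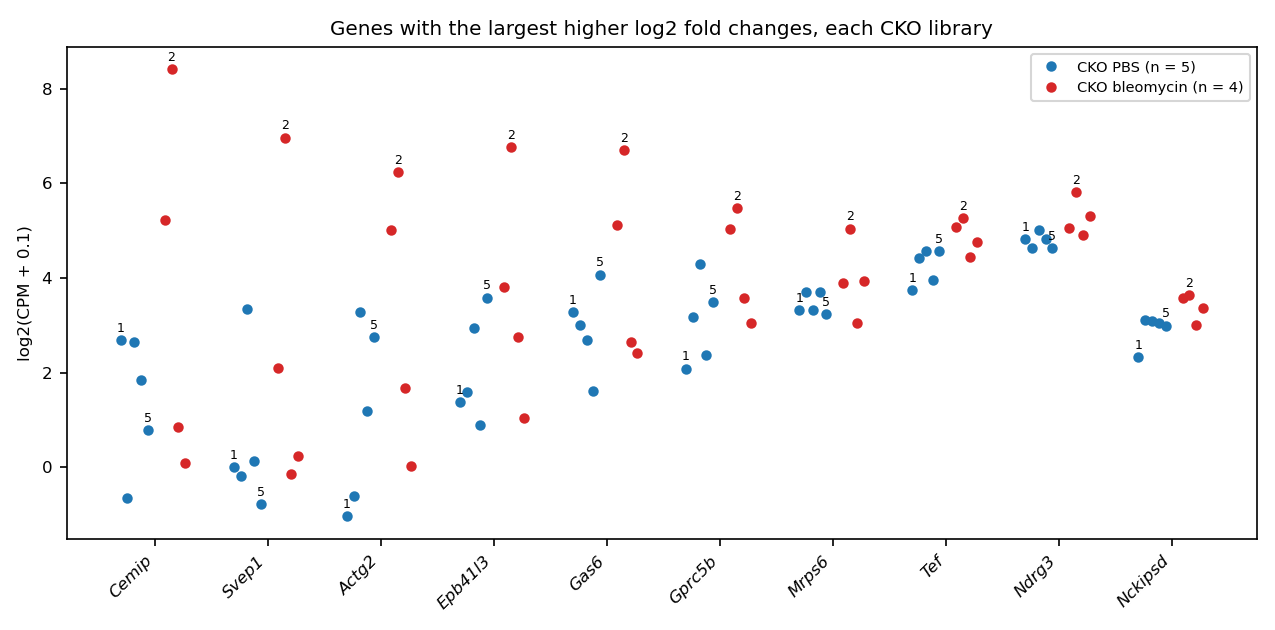
The 10 genes with the largest higher log2 fold changes among those with an unadjusted p under 0.05 and 10 CPM in 2 CKO libraries are shown as log2(CPM + 0.1) for each CKO library, with red points for the 4 bleomycin and blue points for the 5 PBS mice. Bleomycin mouse 2 is the top point from Cemip to Nckipsd, and the 2 groups overlap for every gene shown.

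By the same rule, the largest lower values came mainly from CKO PBS mouse 1 and, next, from PBS mouse 5. Nos2, the inducible nitric oxide synthase of activated macrophages, was at 1.38, 0.591, 7.69 and 0.270 CPM with bleomycin and at 454, 0.153, 19.4, 0.441 and 37.9 CPM with PBS. The PBS mice spanned the whole range of the bleomycin mice and beyond, with a log2 fold change of −5.37 (SE 2.16). Mmp13 (chr9:7272514-7283331, plus strand, GRCm38) was at 33.7, 32.4, 27.0 and 8.34 CPM with bleomycin. In PBS mice 1 to 5 it was at 3950, 4.46, 41.8, 73.0 and 521 CPM, so that 4 PBS libraries were above all bleomycin libraries and 1 was below them. Its log2 fold change was −5.18 (SE 1.58, unadjusted p by edgeR 0.00497), or −2.68 without PBS mouse 1 and −0.62 without PBS mice 1 and 5.

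Mmp8, a collagenase best known from neutrophils, was at 28.2, 36.5, 132 and 93.3 CPM with bleomycin and at 9490, 9.70, 125, 76.3 and 260 CPM with PBS (log2 fold change −4.78, SE 1.64), or 0.06 without PBS mice 1 and 5. Serpinb2, an inhibitor of plasminogen activators, was at 10.3, 19.9, 40.6 and 7.01 CPM with bleomycin and at 2800, 2.27, 8.54, 19.2 and 45.6 CPM with PBS, with a log2 fold change of −4.89, or 0.03 without PBS mouse 1. Il1b, the inflammatory cytokine interleukin 1 beta, was at 3.04, 1.66, 102 and 22.7 CPM with bleomycin and at 3680, 5.46, 29.1, 27.3 and 54.6 CPM with PBS. Apart from PBS mouse 1 its PBS values lay inside the bleomycin range, and the log2 fold change of −4.55 (SE 2.11) became 0.14 without that mouse. The acid phosphatase gene Acpp had a log2 fold change of −4.60 with 1 PBS library at 2330 CPM and the other libraries at 7.50 to 28.2 CPM. Gbp4 and Gbp5, guanylate-binding proteins induced by interferon gamma, had log2 fold changes of −4.20 and −4.16. Gbp5 was at 164 and 43.3 CPM in PBS mice 1 and 5 and at 0.422 to 4.97 CPM in the other libraries. The ribosomal RNA gene CT010467.1, which has near-identical copies, was at 147000 CPM in PBS mouse 2 and at 93.1 to 2930 CPM in the other libraries. Its log2 fold change of −4.83 became 1.32 without PBS mouse 2.

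Of the 75 genes lower at an unadjusted p under 0.05, PBS mouse 1 was the highest library for 57, or 76%, and PBS mouse 5 for 12, or 16%. PBS mice 2, 3 and 4 were the highest for 3, 0 and 3 of them. A bleomycin library was never the highest, which again follows largely from the choice of genes. Over all genes tested, PBS mice 1 to 5 were the highest for 17.6%, 16.7%, 11.4%, 8.19% and 13.9%. Without PBS mouse 1, 39 genes had an unadjusted p under 0.05, of which 23 were among the 101. Without bleomycin mouse 2 there were 31, of which 23 were among the 101. The genes at that level thus depended on which mouse was included.

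**Figure D3:**
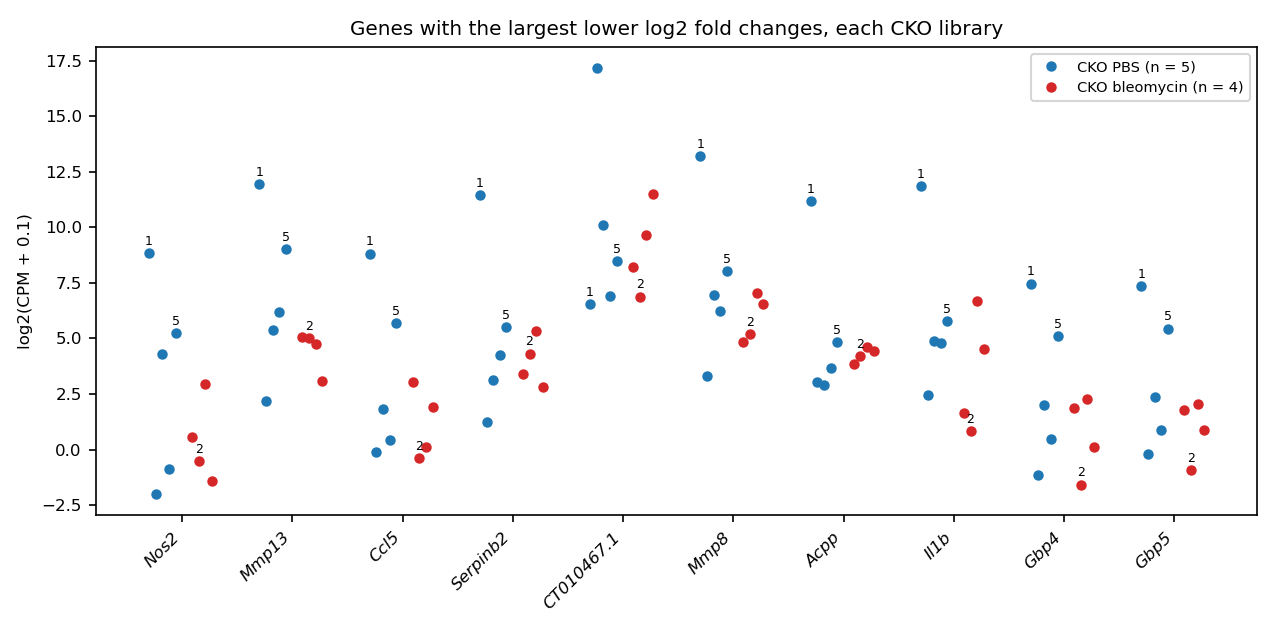
The 10 genes with the largest lower log2 fold changes among those with an unadjusted p under 0.05 and 10 CPM in 2 CKO libraries are shown as log2(CPM + 0.1) for each CKO library, with red points for the 4 bleomycin and blue points for the 5 PBS mice. PBS mouse 1 is the top point for every gene except CT010467.1, where PBS mouse 2 is, and PBS mice 2 to 5 overlap the bleomycin mice.

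Interferon-stimulated genes had lower values throughout the list. All 30 of 30 measured members had lower values with bleomycin, 5 of them at an unadjusted p under 0.05, and the median log2 fold change was −1.38 with a range of −3.14 to −0.12, beside a median of −0.03 and 55.8% lower over all genes tested. Members are not independent of each other, since the same libraries carry them all. The mean log2 CPM over the list was 6.09, 3.98, 5.58 and 5.25 in bleomycin mice 1 to 4 and 6.74, 3.53, 5.62, 4.75 and 8.51 in PBS mice 1 to 5. PBS mouse 5 stood above all others, PBS mouse 2 was the lowest of all 9, and the rest were interleaved. PBS mouse 5 was the highest library for 27 of the 30 genes, and PBS mouse 1 for the other 3. Without PBS mouse 5 the median was −0.16, with 11 members higher and 19 lower. Without PBS mice 1 and 5 it was 0.45, with 29 higher and 1 lower.

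Rsad2, the antiviral enzyme viperin, was at 83.0, 21, 56.2 and 42.5 CPM with bleomycin and at 360, 11.5, 58.9, 48.1 and 1560 CPM with PBS (log2 fold change −3.01, SE 1.34), or −1.24 without PBS mouse 5. Gbp2, a guanylate-binding protein of cell-autonomous defence, was at 73.3, 31.7, 42.9 and 66.5 CPM with bleomycin and at 1590, 22.8, 45.9, 58.0 and 373 CPM with PBS (log2 fold change −2.96, SE 1.07). For both genes PBS mice 1 and 5 were the only PBS libraries above the bleomycin range. Ifit2, which binds viral RNA, had a log2 fold change of −2.50, Gbp3 −2.75 and the nucleotide kinase Cmpk2 −3.14. The transcription factor genes Irf7 and Irf9 had smaller values, −1.22 and −0.12. Gbp2 and Gbp3, and Ifit3 and Ifit3b, have close paralogs, and the division of their reads is uncertain.

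The promoters of these genes were searched for GAAA, any 2 bases and GAAA, the core of the interferon-stimulated response element, on both strands in the 250 bases before the RefSeq start site (GRCm38.p6). Of the 22 list members with a promoter in the table, 12 held a match (54.5%), as did 277 of 8029 tested genes (3.45%) and 936 of 27025 promoters in all (3.46%). The list was made of known interferon-stimulated genes, so its share describes the list and not the difference with bleomycin. Stretches of 90 bases are shown for the 3 members with low p and a match and for the chemokine gene Cxcl10, described next, to show the element's shared letters in genes whose values were highest in PBS mice 1 and 5. They run 5′ to 3′ on the strand of the gene, and capitals mark the match or its reverse complement. The Rsad2 stretch is chr12:26456518-26456607 on the minus strand, that of Gbp2 chr3:142620569-142620658 on the plus strand, that of Gbp3 chr3:142559954-142560043 on the plus strand with 2 overlapping matches, and that of Cxcl10 chr5:92349048-92349137 on the minus strand.
Rsad2: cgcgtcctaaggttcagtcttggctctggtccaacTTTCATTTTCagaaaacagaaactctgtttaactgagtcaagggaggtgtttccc
Gbp2: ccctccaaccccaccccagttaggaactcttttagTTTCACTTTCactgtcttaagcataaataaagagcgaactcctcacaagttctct
Gbp3: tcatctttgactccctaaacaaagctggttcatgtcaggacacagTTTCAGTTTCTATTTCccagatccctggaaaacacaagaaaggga
Cxcl10: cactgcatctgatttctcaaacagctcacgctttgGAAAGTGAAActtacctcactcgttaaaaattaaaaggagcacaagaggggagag

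**Figure D4:**
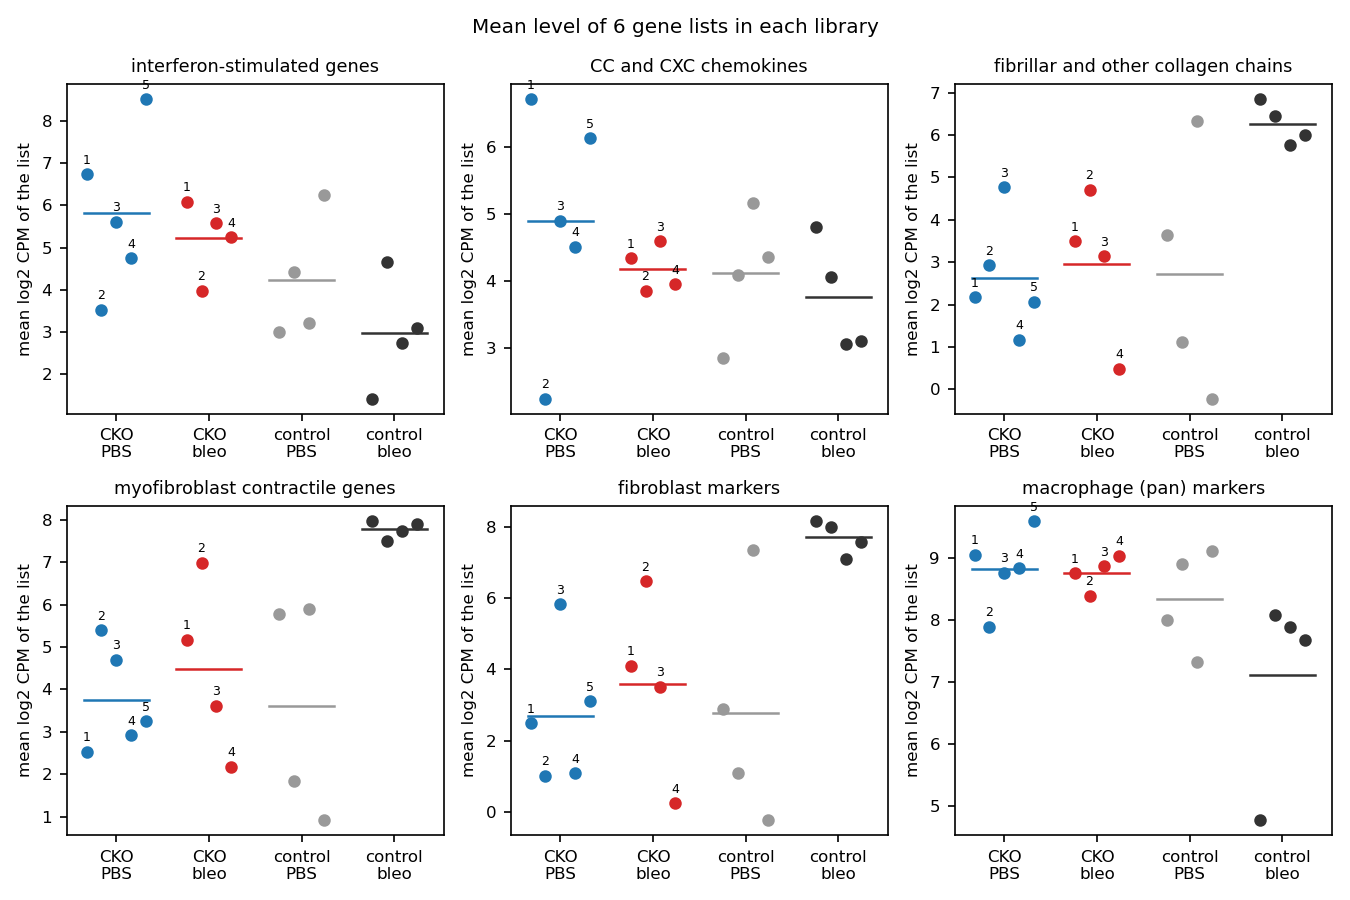
Mean log2 CPM over the members of 6 gene lists in each of the 17 libraries, with points for mice (CKO mice by number) and lines for the means of CKO PBS (blue), CKO bleomycin (red), control PBS (grey) and control bleomycin (black). For the interferon-stimulated genes PBS mouse 5 is highest, at 8.51, and the other 8 CKO libraries lie between 3.53 and 6.74 with the groups interleaved.

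Chemokine transcripts were lower for 16 of 18 measured members, 4 of them at an unadjusted p under 0.05. Over all genes tested, 55.8% were lower, 44.2% higher and 0.716% lower at that level, shares that apply beside the lists below too. The median log2 fold change of the chemokines was −1.08. It was −0.49 without PBS mouse 1 and 0.21 without PBS mice 1 and 5. Cxcl10, an interferon-induced attractant of T cells, was at 8.83, 0.572, 1.72 and 6.01 CPM with bleomycin and at 29.7, 22.5, 4.83, 6.89 and 167 CPM with PBS. PBS mice 1, 2 and 5 were above all bleomycin libraries, and the log2 fold change was −3.43 (SE 1.14, unadjusted p by edgeR 0.0088), or −1.90 without PBS mouse 5 and −1.40 without PBS mice 1 and 5. Ccl3, an attractant of monocytes, was at 51.7, 33.3, 71.2 and 121 CPM with bleomycin and at 1200, 45, 72.1, 261 and 152 CPM with PBS (log2 fold change −2.32, SE 0.82), or −0.94 without PBS mouse 1. Its neighbour in function Ccl4 was at 4.56, 6.49, 3.64 and 7.67 CPM with bleomycin and at 102, 1.85, 4.50, 12.1 and 41.8 CPM with PBS (log2 fold change −2.54, SE 0.91), or −0.12 without PBS mice 1 and 5. Ccl5 was at 451 and 51.2 CPM in PBS mice 1 and 5 and at 0.666 to 8.09 CPM in the other libraries, with a log2 fold change of −4.91, or 0.91 without both mice. The 2 members with a higher value were the neutrophil attractant Cxcl5 at 2.13 and the fibroblast-derived Cxcl12 at 0.26, neither of them at an unadjusted p under 0.05.

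The promoters of 2 of the 12 chemokine genes in the table, or 16.7%, held the interferon-response letters. The letters GGGA, any 1 base and TTTCC, a form of the binding site of NF-kappa B, were in 3 of those 12 promoters, Cxcl1, Cxcl2 and Cxcl3, or 25%. They were in 0 of the 22 interferon-stimulated promoters and in 39 of 8029 tested genes, or 0.486%. Cxcl1, Cxcl2 and Cxcl3 were not among the chemokines at an unadjusted p under 0.05. Of those that were, Ccl3 and Cxcl10 lacked the NF-kappa B letters and Ccl4 and Ccl5 had no promoter in the table. Whether either set of letters relates to the differences was not tested.

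Among 23 inflammatory and growth cytokines, 8 had a higher and 15 a lower value, with a median log2 fold change of −0.45. At an unadjusted p under 0.05 were Il1b and its antagonist Il1rn. Il1rn was at 142, 170, 415 and 279 CPM with bleomycin and at 973, 53.8, 458, 985 and 1640 CPM with PBS, so that 4 of 5 PBS libraries were above all bleomycin libraries (log2 fold change −1.71). Il6 had a log2 fold change of −3.35, Il1a −2.07 and Tnf −1.40, none at an unadjusted p under 0.05. The macrophage growth factor Csf1 was at 1.76 in the other direction, also with an unadjusted p above 0.05.

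Of 19 matrix proteases and inhibitors, 7 were higher and 12 lower, with a median of −0.62, and only Mmp13 and Mmp8 had an unadjusted p under 0.05. Mmp12, the elastase of macrophages, was at 2200, 9030, 1740 and 1820 CPM with bleomycin and at 44500, 751, 1780, 6710 and 6350 CPM with PBS. Its log2 fold change was −1.70, with PBS mouse 1 the highest and PBS mouse 2 the lowest of the 9 libraries. Mmp10, a stromelysin, had a log2 fold change of −2.81.

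Collagen chains had no common direction. Of 24 measured members of 44 in the table, 13 had a higher and 11 a lower value, and the median log2 fold change was 0.10. Col1a2, a chain of collagen I, was at 97.4, 467, 38.9 and 1.89 CPM with bleomycin and at 2.51, 2.32, 326, 3.30 and 32.2 CPM with PBS (log2 fold change 1.05, SE 1.81). Both groups held libraries with a few CPM and a library above 300 CPM. Col3a1, the chain of collagen III, was at 19.4, 210, 77.1 and 2.33 CPM with bleomycin and at 1.30, 1.37, 972, 1.54 and 19.4 CPM with PBS, with a log2 fold change of −1.37 (SE 2.16). Neither direction held, since with 1 library left out Col1a2 ran from −0.67 without bleomycin mouse 2 to 3.89 without PBS mouse 3, and Col3a1 from −2.60 to 3.68 without the same mice. Without bleomycin mice 1 and 2 they were at −1.85 and −2.33. Col1a1 had a log2 fold change of 0.47. The only collagen at an unadjusted p under 0.05 was Col5a3, at 391 CPM in PBS mouse 1 and 0.746 to 6.83 CPM in the other libraries, with a log2 fold change of −4.35, or 0.02 without that mouse. Without bleomycin mouse 2 the median over the collagens was −0.71, with 3 higher and 21 lower. Without both CKO bleomycin mice whose sex-linked genes went against the label it was −1.68. The columns of the count table run in 2 sorted blocks of 8 and 9 libraries, and with the block as a covariate the median was 0.57 and Col3a1 was at 3.18. CKO bleomycin mouse 2 was also the highest library for 8 of the 12 fibroblast markers, a list that shares Col1a1, Col1a2 and Col3a1 with the collagens, and the part of those cells in the result was not tested.

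The enzymes that fold and cross-link collagen and elastin had a median of −0.11 over 20 genes, 9 higher and 11 lower, none at an unadjusted p under 0.05. Elastic fibre and matricellular genes had a median of 0.39 over 23 genes, with 13 higher and 10 lower, also with none, and the median was −0.66 without bleomycin mouse 2. Myofibroblast contractile genes had a median of 0.70, with 10 of 14 higher and Actg2 at an unadjusted p under 0.05. The myofibroblast actin Acta2 was at 238, 1270, 16.0 and 11.7 CPM with bleomycin and at 19.0, 176, 56.9, 14.2 and 55.7 CPM with PBS. Bleomycin mice 1 and 2 were above every PBS library and mice 3 and 4 were under or near the lowest ones (log2 fold change 2.57, SE 1.40). It was 0.46 without mouse 2 and −2.22 without mice 1 and 2, so that the sign rested on these mice. Over the contractile list the median was −0.57 without bleomycin mouse 2, with 3 higher and 11 lower, and −1.46 without mice 1 and 2, with 0 higher and 14 lower.

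Among 20 genes of TGF-beta ligands, receptors and targets, 8 were higher and 12 lower, with a median of −0.21. Inhba, the subunit of activin A, was at 45, 53.5, 279 and 75.4 CPM with bleomycin and at 1570, 92.6, 86.0, 715 and 90.4 CPM with PBS. All PBS libraries were above 3 of the 4 bleomycin libraries, and the log2 fold change was −2.17 (SE 0.98), or −1.10 without PBS mouse 1. The Eph receptors and ephrins had a median of −0.06 over 9 measured genes, with 2 higher and 7 lower. The 3 lists that the study drew from these same samples for another comparison, and that are not independent evidence of a direction, had medians of −0.26 over 11 matrix genes (3 higher), 0.03 over 4 genes of cargo export from the endoplasmic reticulum (2 higher) and −0.06 over 7 protein transport genes (2 higher). None of these 22 genes had an unadjusted p under 0.05.

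Targets of p53, a transcription factor activated after DNA breaks such as bleomycin makes, had a median of 0.00 over 19 genes at this time, with 10 higher and 9 lower. NRF2 and oxidative stress genes had a median of 0.12, with 10 of 14 higher. Cell cycle genes had a median of 0.04, with 18 of 30 higher, or −0.44 with 0 higher without PBS mice 1 and 5. Cholesterol synthesis and uptake genes were higher for 17 of 19 members, with a median of 0.34 and a range from −0.35 for Dhcr7 to 0.60 for Lss, and the median was −0.05 without bleomycin mouse 2. The 6 genes of MHC class II presentation were all lower, with a median of −0.64, and all higher without PBS mice 1 and 5, with a median of 0.80. Glycolysis and hypoxia genes had a median of −0.12 over 20 members, and lysosomal genes −0.05 over 22. None of the members of these 7 lists passed the adjusted test.

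**Figure D5:**
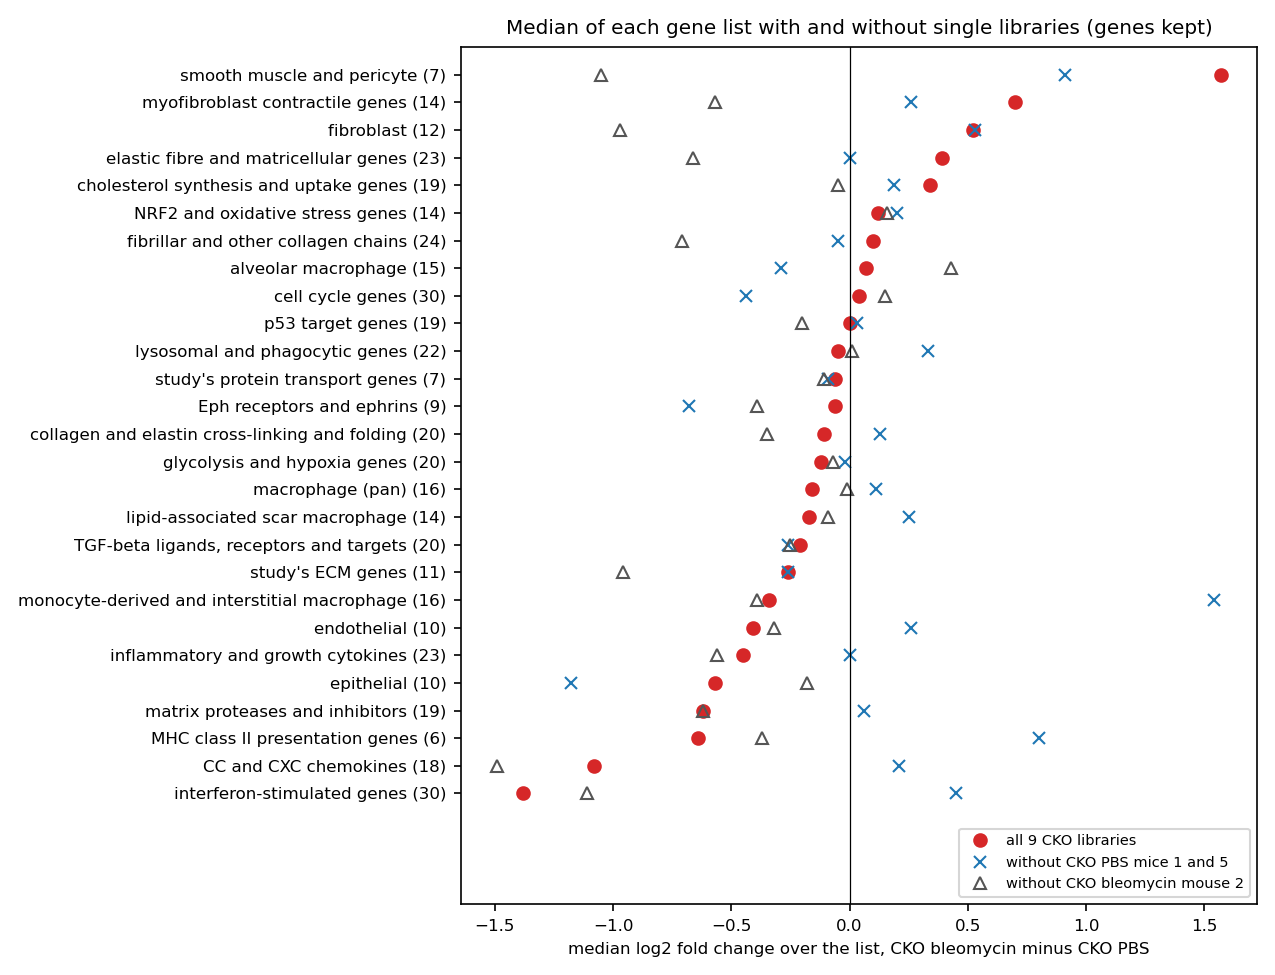
Median fitted log2 fold change of CKO bleomycin over CKO PBS for each gene list, with the number of genes measured in brackets, for all 9 libraries (red), without PBS mice 1 and 5 (crosses) and without bleomycin mouse 2 (triangles). The interferon-stimulated median moves from −1.38 to 0.45 without the 2 PBS mice, and the contractile median from 0.70 to −0.57 without the bleomycin mouse.

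Cell type markers varied between mice more than between the groups. Fibroblast markers were higher for 9 of 12 genes with a median of 0.52, but the median was −0.97 without bleomycin mouse 2 and 3.21 without PBS mouse 3. Smooth muscle and pericyte markers, at a summed 15.8 to 334 CPM with bleomycin and 21.4 to 378 CPM with PBS, had a median of 1.57, or −1.05 without bleomycin mouse 2. Pan-macrophage markers had a median of −0.16, with 5 higher and 11 lower. The macrophage lysozyme Lyz2 was at 17300, 14400, 36900 and 26900 CPM with bleomycin and at 8340, 18500, 28700, 26600 and 24200 CPM with PBS. Alveolar macrophage markers had a median of 0.07 over 15 genes, monocyte-derived and interstitial ones −0.34 over 16 and lipid-associated scar macrophage ones −0.17 over 14. The interstitial median was 0.75 without PBS mouse 5. Epithelial markers had a median of −0.57 over 10 genes, at a summed 32.0 to 1400 CPM with bleomycin and 116 to 2580 CPM with PBS, and endothelial markers −0.41 over 10 genes, at 79.0 to 129 CPM and 91.5 to 330 CPM. The epithelial median turned to 0.70 without PBS mouse 2, and the alveolar macrophage median to −0.81 without bleomycin mouse 3. Neutrophil markers were at a summed 47.4 to 163 CPM with bleomycin and 25.2 to 9580 CPM with PBS, with PBS mouse 1, in which Mmp8 was at 9490 CPM, the highest. Lymphocyte markers summed to 1.05 to 30.2 CPM with bleomycin and 1.73 to 70.1 CPM with PBS, where PBS mouse 5 was the highest, and dendritic cell markers to 2.55 to 23 CPM and 10.3 to 36.2 CPM. The part of these markers in the differences above was not tested.

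The same comparison in the control cultures, which has no library in common with this one, had larger values. There edgeR called 0 genes, its lowest adjusted value was 0.118, and it put 658 genes higher (6.28%) and 836 lower (7.98%) at the unadjusted level of 0.05. The paper does report called genes for this control comparison, by DESeq2 with a batch covariate. The 0 thus belongs to edgeR without that covariate and does not mean that the control groups were alike. A difference of more than 2-fold was fitted for 1614 genes, against 535 in the CKO cultures. Collagen chains had a median log2 fold change of 1.39 in the control and 0.10 in the CKO cultures, cross-linking enzymes 1.71 and −0.11, contractile genes 2.96 and 0.70, and fibroblast markers 2.29 and 0.52. With 1 library left out, the CKO collagen median ran from −0.71 to 1.23, and no such range was computed for the control cultures. Control bleomycin mice all had label numbers starting with 12, whereas control PBS mice 2, 3 and 4 had numbers starting with 11. Fibroblast markers summed to 4910 to 11400 CPM in the control bleomycin and 83.7 to 7340 CPM in the control PBS libraries. The part of these in the control values was not tested. Alveolar macrophage markers had a median of −2.09 in the control and 0.07 in the CKO cultures. Interferon-stimulated genes were alike in value, with −1.40 in the control cultures, where 29 of 30 were lower, and chemokines were at −1.01. In the CKO cultures both medians turned sign without PBS mice 1 and 5, as given above, so the likeness rests on those mice. Pan-macrophage markers were lower in the control cultures too, with a median of −1.03 and 16 of 16 lower. Their part was not tested.

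The difference between the 2 comparisons was tested as an interaction, with 0 genes called (0%), a smallest adjusted p of 0.916 and 363 genes at an unadjusted p under 0.05 (3.46%). Mbd1, which binds methylated DNA, had the smallest unadjusted p (0.00127 by edgeR), with a log2 fold change of −0.06 in the CKO and 1.09 in the control cultures. The developmental gene Disp1 was at 0.23 and 1.30. Marco, a scavenger receptor of alveolar macrophages, was at 23.7, 4.45, 729 and 480 CPM in the CKO bleomycin mice and at 99.9, 264, 837, 490 and 243 CPM in the CKO PBS mice. Its log2 fold change was −0.32 in the CKO and −5.47 in the control cultures, a difference of 5.15. In the CKO cultures bleomycin mice 3 and 4 were inside the PBS range of Marco and mice 1 and 2 under it. Among the other genes of smallest interaction p, the difference was 0.80 for Ralgapa2, 0.91 for Gm24119, 0.81 for the pseudogene Bnip3l-ps and 1.22 for Prxl2a. In the other direction it was −2.63 for Lims2, −0.92 for the zinc transporter Slc39a13 and −1.87 for the mitochondrial ribosome gene Mrpl53. Over lists the median interaction was −1.68 for collagen chains, −1.51 for cross-linking enzymes, −1.61 for contractile genes, 2.52 for alveolar macrophage markers and −0.11 for interferon-stimulated genes. The interaction was at an unadjusted p under 0.05 for 0 of 24 collagen chains, 3 of 20 cross-linking enzymes, 0 of 14 contractile genes and 5 of 15 alveolar macrophage markers, and none of these passed the adjusted test.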

How the data were processed

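Total RNA (TruSeq stranded kit) was sequenced from cultured lung cells of 17 mice. The authors trimmed reads with Cutadapt, aligned them to GRCm38 with HISAT2 2.1.0, assembled with StringTie and deposited whole-number counts per gene. They sequenced in 2 runs, and which library was in which is not given in the sources used here. The study's model had a batch number as a covariate, which the paper does not define further and which was left out here. The columns of the table run in 2 sorted blocks of 8 and 9 libraries, each with 2 CKO bleomycin and 2 or 3 CKO PBS libraries, and an alternative chosen after seeing the data had this block as a covariate. From the counts, TMM-scaled CPM and edgeR 4.0.16 quasi-likelihood tests (R 4.3.3) were computed over all 17 libraries with 1 mean per group and Benjamini-Hochberg adjustment. Genes above 10 CPM in 2 or more libraries were kept. Alternatives used limma 3.58.1 (voom) and DESeq2 1.42.0. Positions come from GENCODE M21. Scripts were tested on simulated data. Replicate numbers follow accession order and only name mice. The edgeR p-values set a group difference against the spread between mice, which was estimated over all 17 libraries, controls included.

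Members and lists were chosen with earlier results of these data known. Genes named are Ephb4, those without overlap between groups, the 10 largest log2 fold changes each way at an unadjusted p under 0.05 and 10 CPM in 2 CKO libraries, list members of low p or high CPM, and the 5 genes each way of lowest interaction p. Other genes named (Irf9, Cmpk2, Cxcl5, Cxcl12, Il6, Tnf, Dhcr7, Col1a1 and Pdgfra) were chosen after their values were seen.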

Additional observations from a re-analysis of the deposited data

Results flagged for a closer look

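A test for 1 library far from the others of its group was run on 126 groups of values, and 8 were marked, where chance marks about 1 in 20. All values are log2 CPM. In CKO bleomycin mouse 4, the mean over the TGF-beta list was 4.18 beside 5.23 to 5.29 in the other bleomycin mice, the mean over the Eph receptors and ephrins was 0.56 beside 2.53 to 2.91, and Mmp13 was 3.06 beside 4.75 to 5.07. Magoh was 4.22 in CKO bleomycin mouse 3 beside 4.30 to 4.31. The lymphocyte list, of which only Cd4 passed the filter on low values, was 3.53 in CKO PBS mouse 5 beside −0.48 to 0.05 in the other PBS mice. Svep1 was 3.34 in CKO PBS mouse 3 beside −0.99 to 0.04. In CKO PBS mouse 1, Nckipsd was 2.31 beside 2.98 to 3.10, and Acpp was 11.19 beside 2.91 to 4.82.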

How the results depend on the processing

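No gene was called at an adjusted p under 0.05 under any edgeR or limma alternative, also for the interaction. DESeq2 called 1, Mmp13, and none for the interaction. DESeq2 with the column block of the count table as a covariate called 1 in each, and in the CKO comparison this was Rnu3a with a fitted log2 fold change of −37.8, which is no usable size. The count of genes at an unadjusted p under 0.05, 101 as reported, was 662 with no filter, 309 with filterByExpr, 57 with only the 9 CKO libraries, 463 with only mice whose label number starts with 12 (2 against 2), 25 with only those starting with 11 (2 against 3), 34 without the CKO libraries whose sex-linked genes go against the label, 185 with DESeq2, 197 with DESeq2 and the column block, and 28 with limma voom. It ran from 31 to 284 with 1 library left out, and was 188 without CKO bleomycin mouse 2 and CKO PBS mouse 3, a setting chosen after seeing the data. No paired analysis was possible because the replicate numbers only name the mice.

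Of the genes at an unadjusted p under 0.05, these log2 fold changes turned sign, and the cause was not tested. With mice numbered 11 alone, Cemip was −1.51, Svep1 −2.03, Actg2 −1.63, Epb41l3 −0.73, Gas6 −0.61, Gprc5b −0.27, CT010467.1 1.82, Acpp 0.50 and Il1b 0.73. Without the sex-mismatched CKO libraries, Cemip was −1.45, Svep1 −1.48, Actg2 −0.94, Epb41l3 −0.30 and Gas6 −0.60. Without CKO bleomycin mouse 2, Svep1 was −0.39. Without CKO PBS mouse 1, Serpinb2 was 0.03, Acpp 0.47, Il1b 0.14 and Col5a3 0.02, and without PBS mouse 2, CT010467.1 was 1.32. Without PBS mice 1 and 5, a setting added after seeing the data, Ccl5 was 0.91, Serpinb2 0.98, Mmp8 0.06, Acpp 1.08, Il1b 0.67, Gbp4 0.35, Col5a3 0.12, Gbp2 0.36, Gbp3 0.48, Rsad2 0.38, Cmpk2 0.55 and Ifit2 0.94. With the column block in edgeR, 77 genes were at an unadjusted p under 0.05, 64 of them among the 101, and none of the 101 turned sign. Ephb4 stayed between −0.42 and 0.64.

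The ranges with 1 library left out were −0.39 to 5.37 for Svep1, −5.54 to 0.03 for Serpinb2, −6.18 to 1.32 for CT010467.1, −4.94 to 0.47 for Acpp, −6.38 to 0.14 for Il1b and −4.74 to 0.02 for Col5a3. Genes above that p turned too, such as Acta2 at −1.63 with mice numbered 11 and −2.22 without the sex-mismatched libraries, and Col1a2 and Col3a1 with 1 library left out. The total counts of both groups overlapped.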
